A study of Homo sapiens with 4 samples.

Results

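The genes of sterol and fatty acid synthesis were examined in MDA-MB-231, a cell line long in culture that was derived from a triple-negative breast carcinoma. The group holds 31 of the 34675 genes of the authors' deposited table and was chosen by gene name. It comprises 16 genes of the sterol branch, 10 of the fatty acid branch, and 5 regulators and carriers. The sterol branch covers the mevalonate route and the steps from squalene synthesis to cholesterol. The regulators and carriers are SREBF1, SREBF2, INSIG1, SCAP and STARD4. All 31 names were found once each. Per the labels, one stable line carried the plasmid pcDNA-FLAG-LKB1 wildtype, which encodes a tagged form of the kinase made from STK11, and the other carried pcDNA-Vector. Both were grown on plastic in DMEM with 10% serum, and total RNA was made into stranded whole-transcriptome libraries, 2 per line. The plasmid's promoter is not named in the labels, and neither is whether a line was 1 clone or a pool, or whether the duplicates were separate cultures. The deposited p-values thus speak for the spread of these 4 libraries alone, and that spread may be technical.

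Cells build cholesterol from acetyl-CoA by way of mevalonate, isoprenoid diphosphates, squalene and lanosterol, and they build fatty acids from the same acetyl-CoA by way of malonyl-CoA. Both routes are transcribed under the sterol regulatory element-binding proteins, which are held in the endoplasmic reticulum by SCAP and INSIG proteins while sterols are plentiful and are cleaved into active factors when sterols fall. LKB1 activates the kinase AMPK, which is known to phosphorylate and inhibit acetyl-CoA carboxylase and to restrain SREBP processing. The factors bind sterol elements and E-boxes, commonly beside CCAAT boxes bound by NF-Y and GC boxes bound by Sp1.

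Stretches of 6 promoters are shown to make these letters visible in genes of each branch and among the regulators. The sequences are those of RefSeq on GRCh38.p14, they lie upstream of an annotated start, and they are written 5′ to 3′ on the strand of the gene. Capitals mark CCAAT (or ATTGG, its complement), the sterol element TCACNCCAC and the E-box CACGTG. In SREBF2 (chr22:41832960-41833015, plus strand) a sterol element stands before an inverted CCAAT box.
SREBF2: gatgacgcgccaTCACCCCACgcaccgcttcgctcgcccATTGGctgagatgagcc
In INSIG1 (chr7:155297696-155297840, plus strand) an inverted CCAAT box stands before an E-box, with GC boxes left in lower case between them.
INSIG1: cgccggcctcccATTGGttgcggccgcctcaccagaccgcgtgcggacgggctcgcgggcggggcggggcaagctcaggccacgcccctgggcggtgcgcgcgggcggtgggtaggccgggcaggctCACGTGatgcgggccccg
In the sterol branch, HMGCS1 (chr5:43313496-43313579, minus strand), MVD (chr16:88663160-88663262, minus strand) and EBP (chrX:48521605-48521794, plus strand) held 2, 3 and 3 CCAAT boxes in the stretches shown.
HMGCS1: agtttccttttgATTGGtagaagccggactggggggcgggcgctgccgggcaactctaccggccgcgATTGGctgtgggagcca
MVD: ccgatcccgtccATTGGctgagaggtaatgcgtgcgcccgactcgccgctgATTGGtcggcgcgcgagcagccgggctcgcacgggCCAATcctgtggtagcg
EBP: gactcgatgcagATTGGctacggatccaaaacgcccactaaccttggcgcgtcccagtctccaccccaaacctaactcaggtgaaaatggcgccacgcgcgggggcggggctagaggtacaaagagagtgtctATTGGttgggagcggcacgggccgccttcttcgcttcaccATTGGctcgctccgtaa
In the fatty acid branch, SCD (chr10:100346992-100347063, plus strand) held 2.
SCD: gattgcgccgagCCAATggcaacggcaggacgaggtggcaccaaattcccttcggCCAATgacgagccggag

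Of the 31 members, 27 matched the RefSeq promoter set, which spans 250 bases before and 50 after each start. A gene held a motif if any of its entries did (37 entries for the 27 members), whereas the shares of all promoters are per entry. The 2 kinds of share are therefore not alike. On both strands, CCAAT was found in 21 of these 27 (77.8%). It was in 44.0% of 7781 protein-coding genes with at least 200 reads and an entry, and in 34.6% of all 35116 promoters. The GC box GGGCGG was in 26 of the 27 (96.3%), against 79.1% of those genes and 45% of all promoters. The sterol element TCACNCCAC was in 1 member, SREBF2, and in 1.5% of those genes (1.13% of all promoters), and CACGTG was in 3 members, INSIG1, LSS and SCAP, and in 13.3% (7.26% of all promoters). Only these exact letters, with N as any base, were sought within that span, so variant or more distant elements were not counted. CCAAT was held by 11 of 13 sterol, 7 of 9 fatty acid and 3 of 5 regulator and carrier genes. EBP held as many CCAAT boxes as MVD in the stretch shown, and any part of these boxes in the folds was not tested. FASN, SQLE, FDFT1 and ACAT2 had no entry.

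The table used here holds 1 comparison over the 4 libraries, with a fold, a p-value and an adjusted p per gene and no value per library. Its header names no direction. Folds were read with the LKB1 line on top, since STK11 had a fold above 1. STK11 had 2112 reads in the LKB1 line and 1321 in the vector line, with a log2 fold of 0.62 in the authors' deposited table (adjusted p = 0.00105), and reads of the plasmid and the endogenous gene cannot be separated. Each read total covers both libraries of a line and was recovered from the deposited folds, and the LKB1 group was 1.04 times as deep as the vector group. At least 40 reads were found for all 31 members and at least 200 for 30. The LKB1 libraries carry fmRNA and the vector libraries mRNA in their titles, a term the labels do not explain, and 1 LKB1 library carries another run tag than the other 3 libraries. Preparation and line therefore cannot be told apart. In a check for mixed-up samples on genes the named line is known to lack, 1 of 2 groups failed to match, as each gene checked had at least 10 reads there, and this applies to every difference given here. The mesenchymal genes CD44, CAV1 and MSN are typical of the named line. They had 12579, 8967 and 8787 reads in the LKB1 line and 9732, 5533 and 12408 in the vector line. VIM and AXL, the others of 5 such genes listed, had no recovered totals. Their log2 folds were -0.26 and 0.42 in the authors' deposited table (adjusted p = 0.454 and 0.0387). Apart from that check, of 5 genes known to be low or absent in the named line, ESR1 and PGR had at most 12 reads in either line, while CDH1 had 278 reads in the LKB1 line and 431 in the vector line, EPCAM 209 and 152, and GATA3 290 and 259.

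Transcripts of both branches were mostly lower in the LKB1 line. By the authors' deposited table, a total of 7 members fell, namely HMGCS1, MVD, IDI1 and FDFT1 of the sterol branch and FASN, FADS1 and FADS2 of the fatty acid branch, while 1, EBP, rose at an adjusted p under 0.05. The 7 are 22.6% of the members, against 3.24% of all genes and 5.83% of genes with at least 200 reads that were called lower. The 1 that rose stands against 2.55% and 6.2% called higher. Below 0 lay 25 of the 31 log2 folds, at a median of -0.42, whereas 50.7% of all 11249 genes with at least 200 reads lay below 0, at a median of 0.00. All 8 calls were lost when a larger variation between libraries (0.2, explained at the end) was assumed for every gene. In RNA of whole cultures, fewer cells of a kind and less RNA per cell cannot be told apart.

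The sizes were modest. The 7 members that fell did so by 1.44-fold to 1.65-fold, and no member's fold reached 2 in either direction. Exact (Clopper-Pearson) 95% intervals, which cover counting error only, lay below 0 for 22 members and above 0 for 3 (EBP, ACSS2 and ELOVL6). The share of all genes with such intervals was not counted, so these counts do not set the members apart. The spread between libraries that the deposited p-values imply is wider than counting error. The standard error of the log2 fold implied by a member's fold and p ran from 0.14 to 0.39.

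Endothelial markers moved in the same direction as most members. Of 9 listed markers 7 were in the table, and all 7 were called lower, with 290 reads in the LKB1 line and 2071 in the vector line over the list, a median log2 fold of -3.06 and no marker at 0 in either line. Adipocyte markers summed to 8 and 6 reads in the LKB1 and vector lines, with ADIPOQ and CIDEA at 0 in both, and hepatocyte markers to 0 and 2 reads, with AMBP, FGA and FGB at 0 in both. Fibroblast markers had 423 and 456 reads in the LKB1 and vector lines, with 2 of 7 called lower and DCN at 0 in both, and leukocyte markers had 1547 and 1665, nearly all of them from CD68, with 1 of 4 called higher and none at 0. Over all genes 3.24% were called lower and 2.55% higher. The part of the endothelial markers in the members' folds was not tested.

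**Figure D1:**
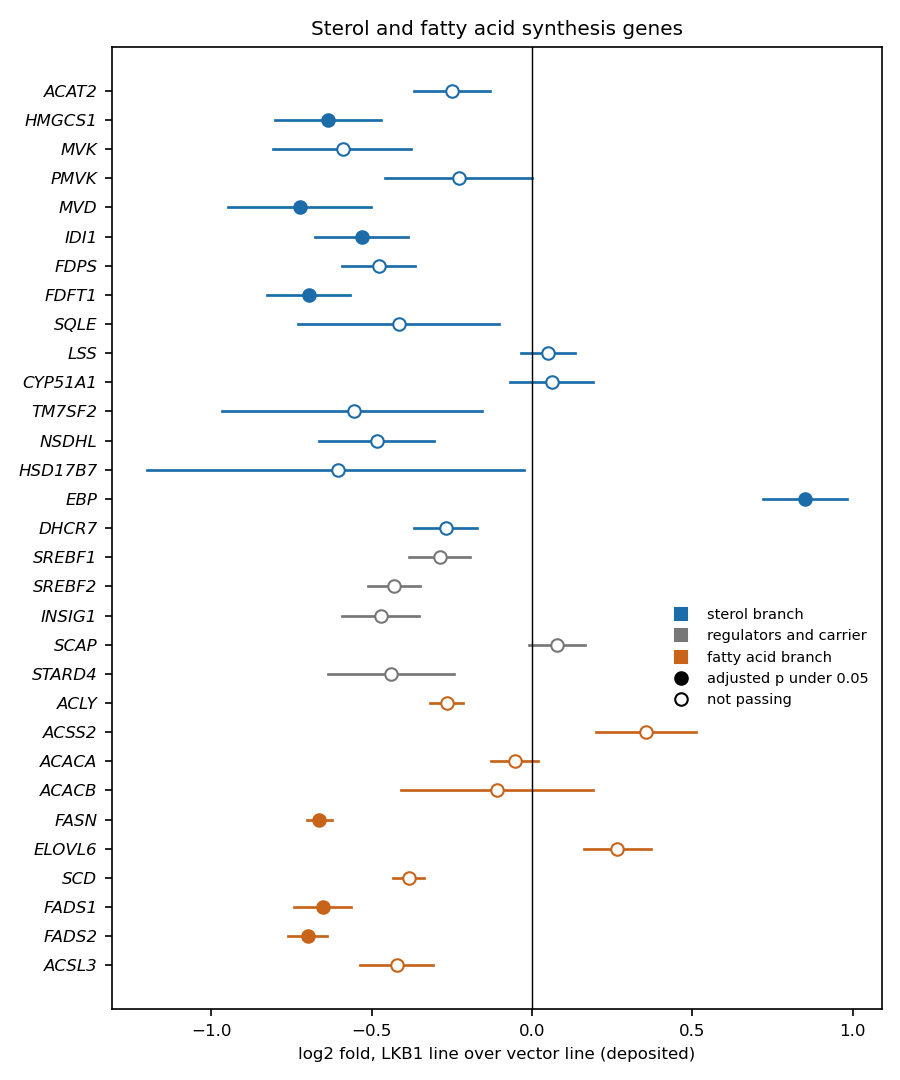
Deposited log2 fold (LKB1 line over vector line) of each of the 31 members, ordered by branch and pathway step; filled circles passed an adjusted p of 0.05 and bars are 95% counting intervals from recovered read totals. The 7 filled circles left of 0 are HMGCS1, MVD, IDI1, FDFT1, FASN, FADS1 and FADS2, and the 1 right of 0 is EBP at 0.85.

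The mevalonate route leads from acetyl-CoA to farnesyl diphosphate, and all 7 of its members had log2 folds below 0, of which 3 passed the test. HMGCS1, the synthase that condenses acetoacetyl-CoA with acetyl-CoA (chromosome 5, 43289497 to 43313614, hg19, minus strand), had 498 reads in the LKB1 line and 744 in the vector line. Its log2 fold was -0.64 ± 0.17 in the authors' deposited table (adjusted p = 0.00481), where ± here and below is the standard error implied by the deposited fold and p. MVD, the decarboxylase that makes isopentenyl diphosphate (chromosome 16, 88718343 to 88729569, hg19, minus strand), had 273 reads in the LKB1 line and 434 in the vector line. In the authors' deposited table it was at -0.72 ± 0.19 (adjusted p = 0.0039), the lowest fold of the 31 members. IDI1, which isomerises isopentenyl to dimethylallyl diphosphate (chromosome 10, 1085848 to 1095110, hg19, minus strand), had 672 reads in the LKB1 line against 934 in the vector line, at -0.53 ± 0.16 in the authors' deposited table (adjusted p = 0.0238).

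The remaining mevalonate members did not pass. Farnesyl diphosphate synthase FDPS had 1101 reads in the LKB1 line and 1475 in the vector line, at -0.48 in the authors' deposited table (adjusted p = 0.0565). Mevalonate kinase MVK had 305 and 442 reads in the LKB1 and vector lines and was at -0.59 in the authors' deposited table (adjusted p = 0.0939). The thiolase ACAT2 in the authors' deposited table was at -0.25 (adjusted p = 0.745) and phosphomevalonate kinase PMVK at -0.23 (adjusted p = 1). Over the 7 members the median log2 fold was -0.53 and the value nearest 0 was -0.23.

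From FDFT1, which makes squalene, to cholesterol the picture was mixed. Of these 9 members 1 was lower (FDFT1 itself), 1 was higher and 7 did not pass. FDFT1, squalene synthase, the first enzyme committed to sterols (chromosome 8, 11653082 to 11696818, hg19, plus strand), had 806 reads in the LKB1 line and 1256 in the vector line. It was at -0.70 ± 0.16 in the authors' deposited table (adjusted p = 0.000655). EBP, the isomerase that shifts the double bond of the sterol ring (chromosome X, 48379546 to 48387104, hg19, plus strand), had 1361 reads in the LKB1 line and 726 in the vector line. In the authors' deposited table it was 1.8-fold higher, at 0.85 ± 0.16 on the log2 scale (adjusted p = 7.04e-06), the highest fold among the members.

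Cyclisation and demethylation of lanosterol showed little difference. Lanosterol synthase LSS had 2370 reads in the LKB1 line and 2204 in the vector line, with a log2 counting interval of -0.04 to 0.13. The lanosterol demethylase CYP51A1 had 1021 and 941 reads in the LKB1 and vector lines, with an interval of -0.07 to 0.19. Of the same strand and overlapping CYP51A1 over 30794 bases, LRRD1 was listed with 1024 and 941 reads in those lines. These totals are nearly those of CYP51A1, so most reads of these genes may be shared. Epoxidase SQLE, with 152 reads in the LKB1 line and 195 in the vector line, was at -0.41 in the authors' deposited table (adjusted p = 0.543). The dehydrogenase NSDHL, with 446 and 600 reads in the LKB1 and vector lines, was listed by the authors' deposited table at -0.48 (adjusted p = 0.0926). The late reductase DHCR7, with 1615 and 1873 reads in those lines, was at -0.27 in the authors' deposited table (adjusted p = 0.547). TM7SF2, a sterol reductase, had 89 and 126 reads and the ketoreductase HSD17B7 had 43 and 63 reads in the LKB1 and vector lines, at -0.56 and -0.60 in the authors' deposited table (adjusted p = 0.434 and 0.675). At these totals their counting intervals reached from -0.97 to -0.15 and from -1.20 to -0.03.

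None of the 5 regulators and carriers passed the authors' test (edgeR, by their notes), and 3 had an unadjusted p under 0.05, all with folds below 0. The share of all genes with such a p was not counted. SREBF2, which encodes the factor that mainly drives sterol genes, had 2186 reads in the LKB1 line and 2833 in the vector line. Its log2 fold was -0.43 ± 0.15 in the authors' deposited table (adjusted p = 0.0534). SREBF1, whose factor mainly drives fatty acid genes, had 1653 and 1941 reads in the LKB1 and vector lines, at -0.29 ± 0.17 in the authors' deposited table (adjusted p = 0.545). INSIG1, the retention protein that is itself an SREBP target, had 998 reads in the LKB1 line against 1331 in the vector line, at -0.47 ± 0.17 in the authors' deposited table (adjusted p = 0.0794). The sterol carrier STARD4 had 375 and 489 reads in the LKB1 and vector lines, at -0.44 ± 0.20 in the authors' deposited table (adjusted p = 0.286). SCAP, the escort protein, had 2263 reads in the LKB1 line and 2062 in the vector line, and its counting interval of -0.01 to 0.16 included 0.

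In the fatty acid branch the synthase fell while the carboxylases that feed it did not differ beyond counting error. FASN, the multienzyme that makes palmitate (chromosome 17, 80036214 to 80056208, hg19, minus strand), had 8739 reads in the LKB1 line and 13322 in the vector line. Its log2 fold was -0.66 ± 0.14 in the authors' deposited table (adjusted p = 9.9e-05). ACACA, the cytosolic acetyl-CoA carboxylase and a textbook AMPK substrate, had 2967 reads in the LKB1 line and 2963 in the vector line (interval -0.13 to 0.02). ACACB, the carboxylase of the mitochondrial surface, had 185 and 192 reads in those lines (interval -0.41 to 0.19). AMPK acts on these enzymes by phosphorylation, which transcript totals do not measure.

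The suppliers of acetyl-CoA went to either side of 0 without passing. ACLY, which cleaves citrate, had 5861 reads in the LKB1 line and 6782 in the vector line, at -0.27 in the authors' deposited table (adjusted p = 0.449). ACSS2, which activates acetate, had 795 reads in the LKB1 line and 598 in the vector line, at 0.35 in the authors' deposited table (adjusted p = 0.328). The elongase ELOVL6, which lengthens palmitate, had 1679 and 1344 reads in the LKB1 and vector lines, at 0.26 in the authors' deposited table (adjusted p = 0.636). ACSL3, the acyl-CoA synthetase of lipid droplets, had 1105 and 1424 reads in the LKB1 and vector lines, at -0.42 in the authors' deposited table (adjusted p = 0.0742).

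The desaturases were all below 0 and 2 of the 3 passed. FADS2, the delta-6 desaturase at the entry to long polyunsaturated fatty acids (chromosome 11, 61560452 to 61634826, hg19, plus strand), had 3663 reads in the LKB1 line and 5725 in the vector line. It was at -0.70 ± 0.14 in the authors' deposited table (adjusted p = 6.89e-05). FADS1, the delta-5 desaturase (chromosome 11, 61567099 to 61596790, hg19, minus strand), had 1683 reads in the LKB1 line and 2545 in the vector line, at -0.65 ± 0.15 in the authors' deposited table (adjusted p = 0.000756). The whole of FADS1, 29692 bases, lies inside the annotated span of FADS2 on the opposite strand, and the sources used here do not say whether counting used strand. Reads of this pair may therefore be shared, and their folds are not independent. SCD, the delta-9 desaturase that makes oleate, had 6187 reads in the LKB1 line and 7768 in the vector line, at -0.38 ± 0.15 in the authors' deposited table (adjusted p = 0.134).

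Other genes with at least 40 reads overlap members. FEN1 lies within FADS2 on the same strand over 4265 bases, with 1290 reads in the LKB1 line and 1634 in the vector line and a log2 fold of -0.40 in the authors' deposited table (adjusted p = 0.155). On the strand of SCD, AL139819.1 overlaps it over 1980 bases, with 2065 and 2663 reads in the LKB1 and vector lines, and on that of LSS, AP001468.1 does so over 4036 bases, with 1057 and 901 reads. SOD2, on the opposite strand to ACAT2 and overlapping it over 2202 bases, had a log2 fold of 0.53 in the authors' deposited table (adjusted p = 0.00938). GGT7, opposite ACSS2 over 715 bases, was at -1.53 in the authors' deposited table. FDPS, CYP51A1 and HSD17B7 had pseudogene copies in the table. Those of HSD17B7 held 7 reads in the LKB1 line and 20 in the vector line, those of FDPS 1 and 1, and those of CYP51A1 1 and 2.

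The branches were compared by counts, medians and summed reads, with no test. Of the sterol branch 4 of 16 members fell and 1 rose, and of the fatty acid branch 3 of 10 fell and none rose. Among those 3 are FADS1 and FADS2, whose reads may be shared. Over all genes 3.24% were called lower and 2.55% higher (5.83% and 6.2% of genes with at least 200 reads). In the fatty acid branch 1 member, ACSS2, was above 0 at an unadjusted p under 0.05 in the authors' table, whose notes name edgeR. The median log2 fold was -0.48 in the sterol branch and -0.33 in the fatty acid branch, a difference of -0.16, while the standard deviation between members was 0.40 and 0.38. Weighting by reads turned the order round. The sterol branch had 12132 reads in the LKB1 line and 13587 in the vector line, a depth-scaled ratio of 0.859, and the fatty acid branch had 32864 and 42663, a ratio of 0.741. The log2 ratio of the sums was then -0.22 for sterol and -0.43 for fatty acid genes, a difference of 0.21. Without EBP, a choice made after seeing the data, the sterol sum was at -0.31 and still above the fatty acid sum. Which branch was lower thus depended on the summary, and these data do not order them.

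**Figure D2:**
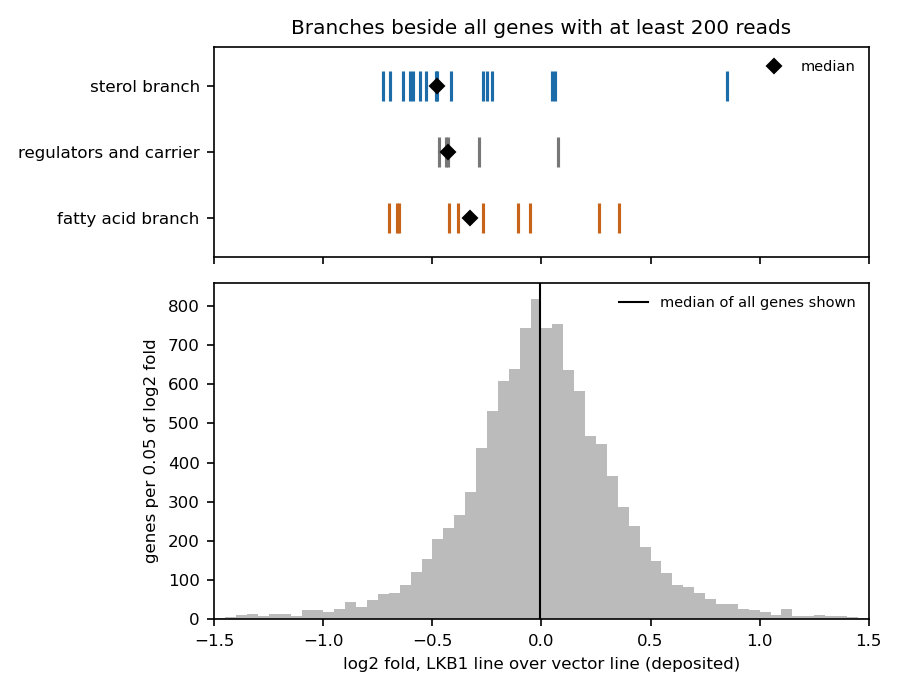
Upper panel, log2 fold of each member as a tick with the median of each group as a diamond; lower panel, log2 folds of all 11249 genes with at least 200 reads in bins of 0.05, with 173 genes beyond 1.5 in either direction left outside the axis. The group medians of -0.48, -0.43 and -0.33 lie left of the median of all genes at 0.00.

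The spread within steps is given without a test. The mevalonate members had a standard deviation of 0.19 between log2 folds, from -0.72 to -0.23. The members from squalene synthase FDFT1 onward had one of 0.49, from -0.70 to 0.85. As summed reads the mevalonate route had 4229 in the LKB1 line and 5603 in the vector line, a depth-scaled ratio of 0.726. The sterol steps from FDFT1 onward had 7903 and 7984, a ratio of 0.952. FDFT1, which makes squalene, held 806 and 1256 of these reads in the LKB1 and vector lines, and a ratio without it was not computed. Without EBP, again a choice made after seeing the data, those 8 members had a standard deviation of 0.29, and their 6542 reads in the LKB1 line and 7258 in the vector line gave a ratio of 0.867. The desaturases had 11533 and 16038 reads in the LKB1 and vector lines (0.692), and the chain-building genes ACACA, ACACB, FASN and ELOVL6 had 13570 and 17821 (0.732), most of them from FASN.

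Levels between genes were compared as reads per kilobase of merged exon, with lengths from GENCODE 29. SCD stood highest in both lines, with 1154 in the LKB1 line and 1449 in the vector line. ACLY had 1123 in the LKB1 line and 1300.0 in the vector line and FASN 933 and 1423, so that ACLY ranked above FASN in the LKB1 line and below it in the vector line. The next highest were EBP at 565 in the LKB1 line and FADS2 at 519 in the vector line. The lowest were HSD17B7, with 9.0 in the LKB1 line and 13.2 in the vector line, and ACACB, with 12.8 and 13.2. Among the carboxylases ACACA was at 228 in both lines, far above ACACB. EBP ranked 4 of 31 in the LKB1 line and 11 in the vector line, and ELOVL6 ranked 15 and 22, the widest gaps in rank. Such levels rest on merged exons and total RNA, so neighbours in this order with close values are not separated.

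**Figure D3:**
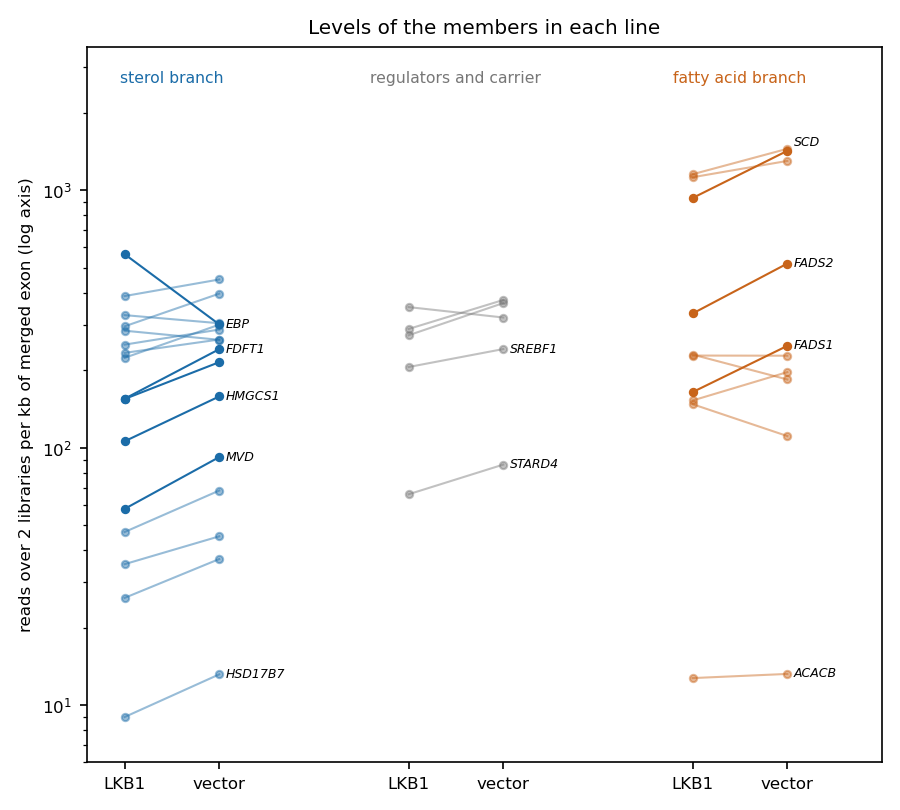
Reads over the 2 libraries of a line per kilobase of merged exon on a log axis, LKB1 line left and vector line right of each pair, 1 line per member; strong lines passed an adjusted p of 0.05. Most lines run upward to the vector line, and EBP runs downward from 565 in the LKB1 line to 301 in the vector line.

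To place each fold along its chromosome, each member was set beside its 24 nearest protein-coding genes with at least 200 reads. EBP stood in a stretch of chromosome X (all 24 neighbours above 0, 17 of them called higher) with a neighbour median of 0.67, and its own log2 fold exceeded it by 0.18. MVD stood in a stretch of chromosome 16 with a neighbour median of -0.42, 5 of the 24 called lower, and lay 0.30 below it. INSIG1 had neighbours on chromosome 7 at a median of 0.34, 5 of them called higher, and lay 0.81 below them, the largest gap of the 31 members. HMGCS1 (neighbours at 0.12), FASN (-0.03), FDFT1 (-0.12), IDI1 (0.10) and FADS2 (-0.15) lay 0.76, 0.63, 0.57, 0.63 and 0.55 below their neighbours. After this subtraction 25 of 31 members were below 0, at a median of -0.41. Of these, 24 had been below 0 before it, while CYP51A1 passed to below 0 and ACACB to above 0. The sterol median became -0.42 and that of the fatty acid branch -0.33.

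**Figure D4:**
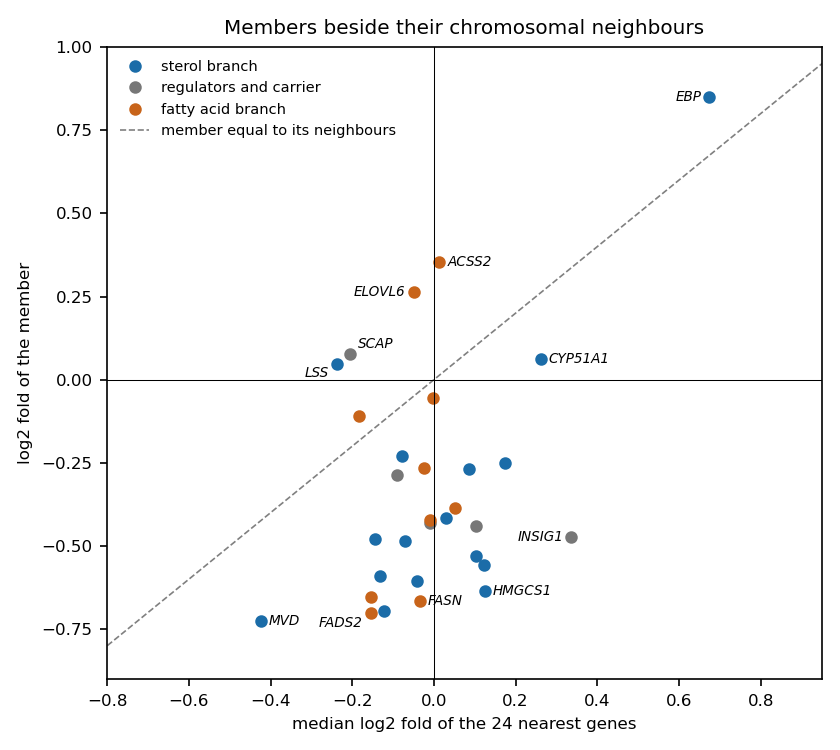
Log2 fold of each member (vertical) against the median log2 fold of its 24 nearest protein-coding genes with at least 200 reads (horizontal); the dashed line marks equality. EBP lies near the line at 0.67 and 0.85, INSIG1 lies far below it at 0.34 and -0.47, and most members lie below it with neighbours near 0.

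Other genes of lipid handling, which are no members, went both ways. Of 12 further genes of SREBP regulation 2 rose and 1 fell, at a median of 0.06 over those with at least 40 reads. For this and the following lists, the shares over all genes were 3.24% lower and 2.55% higher (5.83% and 6.2% with at least 200 reads). In the authors' deposited table the site-2 protease gene MBTPS2 was at 0.92 (803 reads in the LKB1 line, 408 in the vector line, adjusted p = 1.37e-05), with neighbours on the X chromosome at 0.73. INSIG2, the second retention protein, had 621 and 406 reads in the LKB1 and vector lines and was at 0.56 in the authors' deposited table (adjusted p = 0.025), while its relative INSIG1 was at -0.47. MYLIP, a ubiquitin ligase for lipoprotein receptors, had 285 and 463 reads in those lines and was at -0.76 in the authors' deposited table (adjusted p = 0.00532).

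Of 12 genes of sterol transport and turnover 2 rose and 1 fell, at a median of 0.18. The lipoprotein receptor VLDLR had 87 reads in the LKB1 line and 283 in the vector line and was at -1.75 in the authors' deposited table (adjusted p = 1.76e-12). NPC2, which carries cholesterol out of lysosomes, had 2446 and 1291 reads in the LKB1 and vector lines, at 0.87 in the authors' deposited table (adjusted p = 7.32e-07). The exporter ABCG1 had 39 and 11 reads in those lines, at 1.75 in the authors' deposited table (adjusted p = 0.0449). None of 9 further isoprenoid genes was called in the authors' deposited table, whose notes name edgeR, and 0 had an unadjusted p under 0.05 there. Their median log2 fold was -0.10.

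Of 16 further fatty acid genes 2 fell and 1 rose, at a median of 0.06. SCD5, the second stearoyl-CoA desaturase of humans, had 276 reads in the LKB1 line and 492 in the vector line, at -0.89 in the authors' deposited table (adjusted p = 6.39e-05). TECR, a reductase of chain elongation, was at -0.50 in the authors' deposited table (adjusted p = 0.0173), with neighbours on chromosome 19 at -0.54. The acyl-CoA synthetase ACSL5 had 2173 and 1294 reads in the LKB1 and vector lines, at 0.69 in the authors' deposited table (adjusted p = 0.000405). Of 13 genes of glycerolipid synthesis and storage 2 fell and none rose in the authors' table (0 above 0 at an unadjusted p under 0.05, notes naming edgeR), at a median of 0.07. DGAT2, which completes triglycerides, had 123 and 242 reads in the LKB1 and vector lines, at -1.03 in the authors' deposited table (adjusted p = 0.00118). LPIN1, a phosphatidate phosphatase, had 708 and 1107 reads, at -0.70 in the authors' deposited table (adjusted p = 0.00225). Against medians of 0.06 to 0.18 and -0.10 in these lists, that of the members was -0.42. Members and lists were chosen with earlier results of these data known, so this contrast does not set the members apart.

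Of the LKB1 complex and AMPK subunits 9 genes were listed beside STK11, whose fold set the direction and is not counted. Of these 9, 2 rose and 1 fell. Over all genes 2.55% were called higher and 3.24% lower (6.2% and 5.83% of genes with at least 200 reads). The authors' deposited table gave the AMPK subunit PRKAG2 at 0.73 (adjusted p = 0.000164), the LKB1 partner STRADB at 1.05 (adjusted p = 0.00065) and the AMPK subunit PRKAB2 at -0.74 (adjusted p = 0.0248). The catalytic subunits PRKAA1 and PRKAA2 were at 0.16 and 0.14 in the authors' deposited table (adjusted p = 1 for each).

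The calls rested on the variation between libraries that the authors' fit assigned. From fold, totals and p, 26 members gave an implied variation (the coefficient of variation of a gene's level between libraries beyond counting) of 0.095 to 0.167, with a median of 0.104. When an exact negative binomial test on the recovered totals assumed 0.1 for every gene, 10 members fell and 1 rose, against 3.91% of all genes called lower and 3.02% higher (6.81% and 7.03% of genes with at least 200 reads). The 3 added were MVK, FDPS and INSIG1. When it assumed 0.2, none of the 31 passed in either direction, against 1.7% lower and 0.807% higher over all genes (1.87% and 1.36% of those with at least 200 reads). At an unadjusted p under 0.05 with 0.2 assumed, 6 members were lower and 1 higher. The share of all genes at that unadjusted p was not counted. The adjusted p under 0.2 was lowest for EBP, at 0.132, and 0.34 for FADS2, 0.377 for FDFT1, 0.39 for MVD and 0.415 for FASN. By the authors' deposited table, with an adjusted p under 0.1, 13 members were lower and 1 higher, against 3.87% and 3.09% of all genes. Adjusted over the 14387 genes with at least 40 reads, 13 were lower and 1 higher at 0.05, against 8.33% and 7.09% of those genes.

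**Figure D5:**
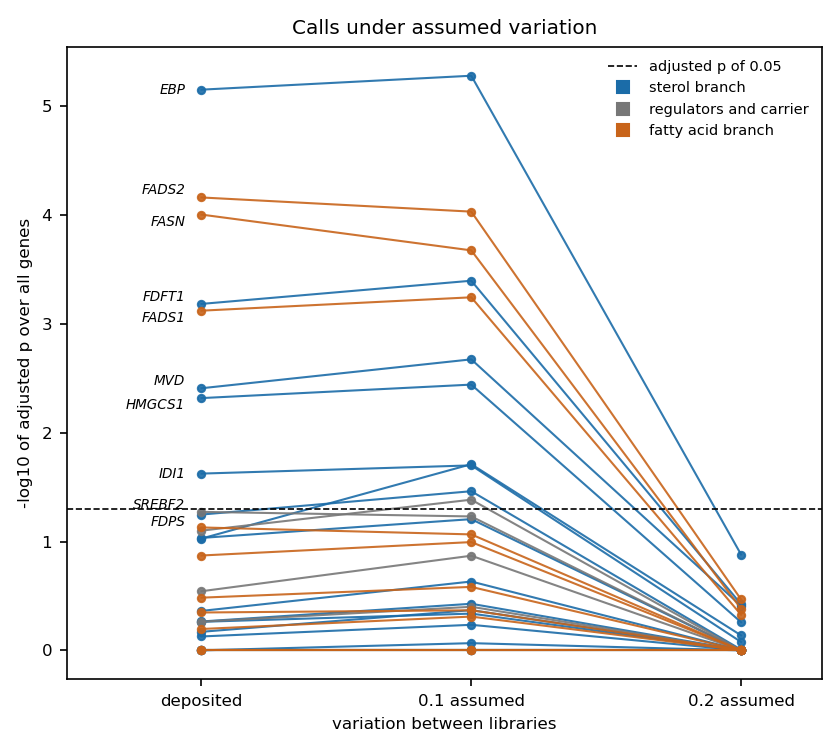
Size of the adjusted p of each member as -log10, in the deposited table and with a variation of 0.1 or 0.2 between libraries assumed for every gene; the dashed line marks 0.05. With 0.1 assumed 11 members lie above the line, and with 0.2 assumed all 31 lie below it.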

How the data were processed

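RNA-seq of 4 libraries, 2 of an LKB1 line and 2 of a vector line, was available as 1 table of the authors' comparison. Per the file headers, the authors deposited a ratio (the fold) per gene with its log2 value, the p-value and the adjusted p. The adjusted p-values equal the Benjamini-Hochberg adjustment over all 34675 genes within 1.9e-06. The submitters' processing notes name hg19 and, without roles, edgeR 2.6.0, TopHat2 2.0.6 and CASAVA 1.8.2. Annotation, filters and strand use in counting: not given in the sources used here. The members and lists were chosen with earlier results of these data known.

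Read totals per line were recovered from the folds, which carry prior counts of 0.255 reads (LKB1) and 0.245 (vector). Whole totals matched within a log2 tolerance of 1.5e-09 for 28140 of 28242 genes with reads (99.6%), seeking totals below 14000 per line. Below 3000, 27301 genes matched, and 106 to 165 did when the priors were shifted. The smallest match was taken. SQLE, CYP51A1, HSD17B7 and ACSS2 had a second, larger match. In simulated data the smallest match was not always the true one at totals as high as those of FASN. Recovered totals were 11790039 reads in the LKB1 line and 11198525 in the vector line over matched genes. An exact negative binomial test (beta-binomial given the depth-scaled total, or its matched beta limit for high totals, smaller tail doubled) with an assumed variation was tested on simulated data. Unmatched genes were given 40000 reads. Implied standard errors are the log2 fold over the normal deviate of p, for members with p under 0.5. Named genes were all members, STK11 and up to 4 called genes per other list; PRKAA1, PRKAA2, the overlapping genes and the markers named were chosen after their values were seen. Computation used Python 3.11.15, numpy 2.4.6, scipy 1.17.1 and pandas 2.3.3. The alternatives tried were other thresholds, filters, scalings, branch definitions and assumed variations.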

Additional observations from a re-analysis of the deposited data

How the results depend on the processing

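No paired analysis was possible because the table holds no value per library, and for the same reason leaving out a replicate was not run. The count of 7 members lower was 6 at an adjusted p under 0.01 or with a fold of at least 1.5 as well. The share of all genes was not counted at these 2 settings. The members lower were 7 after centring on genes with at least 200 reads, and 10 with a variation of 0.1 assumed, against 3.91% of all genes. The count was 13 at an adjusted p under 0.1, where 3.87% of all genes were called lower. It was also 13 when p-values were adjusted over the fewer genes with at least 40 reads, of which 8.33% were called lower. With a variation of 0.2 assumed it was 0, against 1.7% of all genes, and the 1 member higher was also 0. Over the 31 members, 8 lost their call with 0.2 assumed, 3 gained one with 0.1 and 6 gained one over genes with at least 40 reads, with no change of sign. As the log2 ratio of summed reads in place of a median, the sterol branch was at -0.22 (-0.31 without EBP), the fatty acid branch at -0.43, and their difference reversed to 0.21 (0.12 without EBP); the other alternatives moved either median by less than the median half-width of its members' counting intervals. The difference of -0.16 was -0.08 with means, -0.08 without ACAT2, ACLY and ACSS2, and -0.09 less neighbouring genes. Read totals over 2 libraries carry no spread between libraries.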
